A study of Homo sapiens with 19 samples.

Results

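The response of MDA-MB-231 spheres to knockdown of EZH2 was set against their response to knockdown of SCIRT, gene by gene. The compared quantity was the log2 fold change of siEZH2 over its control minus the log2 fold change of siSCIRT over its control. Genes were matched by identifier between the separate tables of the 2 experiments. A total of 15369 genes had a mean of at least 10 normalized counts in both tables, of 25819 listed in both. The comparison asks which genes move together, which move in opposite directions and which move in 1 knockdown alone.

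MDA-MB-231 is an established triple-negative breast cancer line with mesenchymal features. After reverse transfection with siRNA the cells spent 48 h in a sphere medium of DMEM/F12 with B27, EGF and FGF. The groups were siEZH2 (n = 2) with its own control siRNA, siNC (n = 2), and siSCIRT 1 (n = 3) and siSCIRT 2 (n = 3) with another siNC (n = 3). These are 13 of the 19 libraries of the series. The labels name a single siEZH2 reagent, so an effect of that siRNA on other targets and loss of EZH2 cannot be told apart. The siSCIRT response is the mean of both siRNAs, which share 1 set of controls. Nothing in the labels tells whether a group's replicates came from separate cultures, and the p-values below measure no more than the spread among these 13 libraries.

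EZH2 is the methyltransferase subunit of Polycomb repressive complex 2 (PRC2), which puts methyl groups on lysine 27 of histone H3 and thereby keeps genes silent. EZH2 is itself transcribed under E2F control and is abundant in dividing tumor cells. SCIRT is a long noncoding RNA studied in breast tumor-initiating cells, listed in the tables as RP5-1120P11.1. Dividing cells raise genes in waves: E2F factors drive DNA replication genes at the G1/S border, and the MuvB complex with MYBL2 and FOXM1 drives mitotic genes at G2/M. NF-Y binds CCAAT boxes in many mitotic promoters, and MuvB binds an element called the CHR.

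The largest positive differences between the 2 responses included cell cycle genes such as CDC25C and DTL. Promoters of 5 named genes were picked for showing because they hold elements known from cell cycle genes close to their starts. Each line is the last 120 bases before the annotated start, on the gene's strand, from RefSeq's GRCh38.p14, with capitals on matches to the CCAAT box, the CHR (TTTGAA) or an E2F-like motif (GCGGGAA) on either strand.
PRR11 (chr17:59155626-59155745, plus strand): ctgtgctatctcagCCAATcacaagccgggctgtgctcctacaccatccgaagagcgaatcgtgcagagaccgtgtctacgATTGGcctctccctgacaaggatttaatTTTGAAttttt
NEK2 (chr1:211675622-211675741, minus strand): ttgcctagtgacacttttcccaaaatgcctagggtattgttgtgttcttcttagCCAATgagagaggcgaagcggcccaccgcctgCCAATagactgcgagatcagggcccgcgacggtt
BUB1 (chr2:110678064-110678183, minus strand): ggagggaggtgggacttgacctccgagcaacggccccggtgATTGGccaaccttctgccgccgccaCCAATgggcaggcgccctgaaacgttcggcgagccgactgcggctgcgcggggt
CEP55 (chr10:93496492-93496611, plus strand): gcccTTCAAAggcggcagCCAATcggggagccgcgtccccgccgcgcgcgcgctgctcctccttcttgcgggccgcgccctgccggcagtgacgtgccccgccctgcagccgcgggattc
DTL (chr1:212035628-212035747, plus strand): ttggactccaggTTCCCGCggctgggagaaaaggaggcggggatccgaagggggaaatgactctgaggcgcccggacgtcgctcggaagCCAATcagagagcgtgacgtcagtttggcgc

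Each of these 5 stretches holds a CCAAT box, which the choice of genes favoured, and the same stretches of CDC25C, KIAA0101 and SKA3 hold none of the 3 motifs. PRR11 and BUB1 each hold a match on either strand, and the CHR of PRR11 begins 11 bases before the start. The motifs were chosen with the results known, and a match is a description of the letters, not of a bound site. In windows from 250 bases before to 50 after the start, a CCAAT box was found for 58.0% of the 257 matched genes that were higher with siEZH2 and lower with siSCIRT. That class has 311 genes, of which 82.6% matched a promoter. The share with a CCAAT box was 36.4% over the 10572 protein-coding genes tested that matched and 35.7% over all 27305 promoters of the table. A CHR was found for 29.6% of the class against 9.87% of the protein-coding genes and 15.4% of all promoters. The E2F-like motif was found for 17.1% of the class against 10.4% and 6.56%. Among the genes that fell with siSCIRT alone, of which 378 matched, the shares were 48.1%, 19.6% and 13.8% for the CCAAT box, the CHR and the E2F-like motif. Among the 202 matched genes that rose with siEZH2 alone they were 36.1%, 12.9% and 11.4%. The classes that moved in the same direction in both knockdowns were small. The shares were 43.5%, 21.7% and 0% among the 23 matched genes that fell in both. They were 30.4%, 0% and 8.70% among the 23 matched genes that rose in both. Matches to different motifs were counted separately and may share bases.

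Library totals were 27989577 to 38955312 reads in the siEZH2 table and 38635418 to 62218847 in the siSCIRT table. Mesenchymal markers such as VIM and CD44 summed to 3943 to 6676 RPM (reads scaled to the library total) in all 13 libraries, and 6 luminal or epithelial markers to 11.3 to 16.9, with ESR1, PGR and CDH1 near 0. Of 16 markers of other cell types 11 were listed, and CD14, a monocyte gene that tumor lines can express, had the highest median of them, 12.4 RPM, at 2.61 to 16.3 RPM. Their summed level was 15.9 to 20.9 with siNC and 15.7 to 17.8 with siEZH2, and 16.2 to 20.4 with siNC, 22.4 to 23.9 with siSCIRT 1 and 20.1 to 22.5 with siSCIRT 2. The first replicates of the 3 groups of the siSCIRT table deviated from their group means together, with correlations across genes of 0.60 to 0.62, and the class counts without them are given with the classes.

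The controls of the 2 experiments had unlike levels of cell cycle genes after the 48 h in sphere medium. The 44 genes of the G2/M list summed to 610 to 691 RPM in siNC of the siEZH2 table and to 3329 to 4292 in siNC of the siSCIRT table. MKI67, the proliferation marker Ki-67, stood at 22.2 and 16.3 RPM in the former and at 304, 301 and 377 in the latter. The G1/S list summed to 919 to 986 against 1813 to 2256, and EZH2 stood at 15.8 and 15.4 against 48.0, 43.3 and 51.4. Cholesterol genes, in contrast, were at 3793 to 4417 and 3833 to 4024. With siEZH2 the G2/M list summed to 858 to 1041 RPM. It summed to 2096 to 2258 with siSCIRT 1 and to 2280 to 2432 with siSCIRT 2. The 2 control groups belong to separate experiments and tables, which cannot be told apart, so these levels are set side by side without a test. The part of the control level in the results below was not tested.

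The RNAi targets were checked in both tables. EZH2 fell from 518 and 529 normalized counts in the control libraries to 275 and 278 in the siEZH2 libraries, by 0.92 ± 0.10 on the log2 scale (SE; limma, adjusted p = 5.7e-06). In the siSCIRT table EZH2 counts were 2601, 2279.6 and 2699 in the controls, 1670.5, 1741 and 1841 under siSCIRT 1, and 1842, 1847 and 1668 under siSCIRT 2. EZH2 thus fell in both knockdowns, by 0.51 ± 0.07 on the log2 scale with siSCIRT (adjusted p = 3.8e-05). The difference of the 2 responses for EZH2 was -0.41 ± 0.12 (adjusted p = 0.031), a call that was lost in 9 of the alternatives tried. SCIRT fell by 1.13 ± 0.14 with siSCIRT (adjusted p = 1.3e-05) and in the siEZH2 table had 144 and 196 normalized counts in the controls against 143 and 118 (-0.37 ± 0.20, adjusted p = 0.31). Its difference of 0.76 was called at adjusted p = 0.043 and lost in 14 alternatives. SCIRT overlaps C6orf223, and the TruSeq v2 kit does not keep the strand, so reads of these genes cannot be told apart.

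At an adjusted p under 0.05, 1090 genes were called with siEZH2 (7.09% of those tested), 665 higher (4.33%) and 425 lower (2.77%). With siSCIRT 2355 were called (15.3%), 1153 higher (7.5%) and 1202 lower (7.82%). The difference of the responses was called for 2309 genes (15%). The fold change over its own siNC was higher with siEZH2 than with siSCIRT for 1308 (8.51%) and lower for 1001 (6.51%). Of these, 292 and 171 differed by at least 2-fold. The shares over all genes tested are the background for the list counts below. Log2 values were taken after adding 1 to each normalized count, which understates the change of low genes.

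Among genes called in both knockdowns, opposite movement was the rule. Of 449 such genes, 399 moved in opposite directions (88.9%) and 50 in the same direction. They were 41.2% of the genes called with siEZH2 and 19.1% of those called with siSCIRT. The 2 responses share no library, and across all 15369 genes their Pearson correlation was -0.27. The correlation describes these genes, which are not independent replicates, and it was -0.24 without the 88 genes of the cell cycle lists. Of the 399 opposite genes, 338 lay outside those lists. The lists are incomplete, and cell cycle genes such as DTL, CDC25A, SKA3 and CEP55 are not in them. These values therefore cannot show how much of the opposition lies beyond the cell cycle. Opposite genes of other kinds, such as B3GNT1, C1S and COL4A1, are described below.

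The larger opposite class held 311 genes higher with siEZH2 and lower with siSCIRT (2.02% of genes tested), with median log2 changes of 0.64 and -0.59. The smaller held 88 genes lower with siEZH2 and higher with siSCIRT (0.573%), with medians of -0.53 and 0.39. Shared genes numbered 24 up (0.156%) and 26 down (0.169%). A gene was counted as moving in 1 knockdown alone only where it was called there, was not called in the other, and had a called difference. By that rule 241 genes rose (1.57%) and 221 fell (1.44%) with siEZH2 alone, and 462 rose (3.01%) and 465 fell (3.03%) with siSCIRT alone. A further 179 genes called with siEZH2 and 979 called with siSCIRT had no called difference and could not be assigned.

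**Figure D1:**
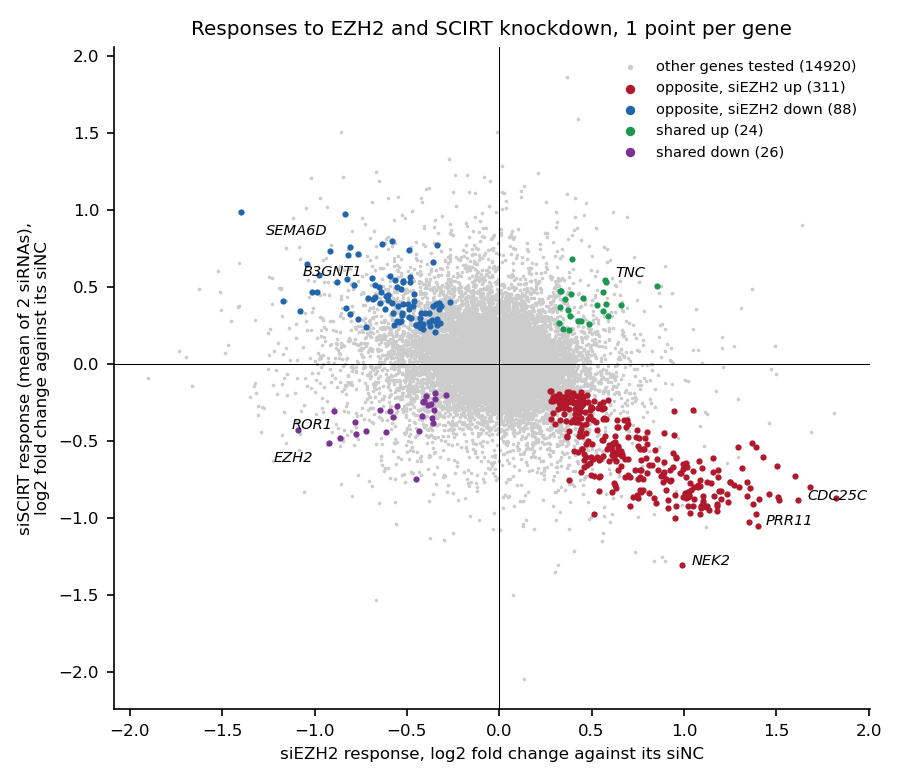
Log2 fold change of each of the 15369 genes with siSCIRT (y axis) against that with siEZH2 (x axis), each over its own siNC. Coloured points are the genes called in both knockdowns: 311 opposite with siEZH2 up and 88 with siEZH2 down lie in the lower right and upper left, and 24 shared up and 26 shared down in the other quadrants.

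Each siRNA alone was called in the same direction for 235 of the 311 and 49 of the 88 opposite genes, for 13 of 24 and 13 of 26 shared genes, and for 295 of 462 and 268 of 465 genes that moved with siSCIRT alone. Between siSCIRT 1 and siSCIRT 2, 1 of the 15369 genes tested differed at adjusted p under 0.05 in the limma fit. At an unadjusted p under 0.05, 362 of the 15369 did. Without the first replicate of the 3 siSCIRT-table groups, 1515 genes were called with siSCIRT, 326 were opposite and 41 shared a direction, and 240 of the 311 opposite genes remained. The counts also depended on single libraries of the siEZH2 table, whose groups have 2 libraries each. Without siNC replicate 1 of that table, 467 genes were called with siEZH2, 191 and 32 were opposite, 19 shared a direction and 177 moved with siEZH2 alone. Without siEZH2 replicate 1 the called genes numbered 702, the opposite ones 194 and 44, and those with siEZH2 alone 306. Without siEZH2 replicate 2 there were 689 calls, 23 genes sharing a direction and 294 with siEZH2 alone, and without siNC replicate 2 of that table, 57 opposite genes with siEZH2 down. In the siSCIRT table, 1485 and 1235 genes were called with siSCIRT without siNC replicate 1 and without siNC replicate 3. Shared genes then numbered 30 and 28, opposite genes with siEZH2 down 51 and 53, and genes with siSCIRT alone 556 and 501. Genes whose difference was called lower fell from 1001 to 545, 625 and 658 without siNC replicate 1, siEZH2 replicate 1 and siNC replicate 2 of the siEZH2 table.

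Most genes of the mitotic list moved in opposite directions in the 2 knockdowns. Of its 44 G2/M genes, 34 rose with siEZH2 and 41 fell with siSCIRT, and 34 did both, which is 34 of the 311 opposite genes. The list median was 1.00 with siEZH2 and -0.83 with siSCIRT, against medians over all genes of 0.01 and 0.0068. The difference was called higher for 41 of the 44. In bulk RNA a smaller share of dividing cells and less RNA of these genes per cell cannot be told apart. Without the first replicates of the siSCIRT table the counts were 35, 38 and 40.

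CDC25C, the phosphatase that opens mitosis by activating CDK1, had the largest difference among the named genes. Its normalized counts went from 57.4 and 36.7 to 153 and 134 in the siEZH2 experiment. In the other experiment they were 774, 602 and 920.1 in the controls, 389, 359 and 407 under siSCIRT 1, and 425, 452 and 430.1 under siSCIRT 2. All siEZH2 libraries lay above their controls and all siSCIRT libraries below theirs. Over all genes tested, 48.2% had siEZH2 libraries that did not overlap their controls in either direction, and 19.2% had such siSCIRT libraries. The log2 changes of CDC25C were 1.62 ± 0.19 (limma, adjusted p = 1.1e-05) and -0.88 ± 0.13 (adjusted p = 9.5e-05), and the difference was 2.50 ± 0.23 (adjusted p = 1.6e-07).

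NEK2, a centrosome kinase, went from 118 and 95.4 normalized counts to 231 and 194 under siEZH2. Its counts were 1749, 1418 and 1937 in the other controls, 623, 706 and 721 under siSCIRT 1 and 680.4, 761 and 612 under siSCIRT 2. NEK2 came first among the opposite genes ranked by the smaller of their 2 changes, 0.99 ± 0.15 and -1.31 ± 0.11, and neither set of groups overlapped. PRR11, a gene that shares its bidirectional promoter region with SKA2, rose from 209 and 231 to 576 and 581 with siEZH2. It fell from 3080.3, 2760.3 and 3097 to 1372, 1438 and 1317 with siSCIRT 1 and to 1630.2, 1658 and 1711 with siSCIRT 2. The difference of PRR11 was 2.37 ± 0.12 (limma, adjusted p = 5.7e-11).

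BUB1, a kinase of the spindle checkpoint, rose from 181 and 204 to 447 and 373 with siEZH2. It fell from 3752, 3213 and 4210.1 to 1866, 1825 and 1820.1 with siSCIRT 1 and to 1957, 2033 and 1811 with siSCIRT 2. BIRC5, which encodes survivin, differed by 2.00 ± 0.21, and CEP55, which acts in the final cut between daughter cells, by 1.95 ± 0.16. The checkpoint kinase TTK and the kinetochore protein SKA3 differed by 2.28 ± 0.21 and 2.16 ± 0.19. MKI67 rose from 726 and 559.6 to 1406 and 1368 with siEZH2 and fell from 16460.2, 15808 and 19797 to between 7786 and 11116 in the 6 siSCIRT libraries. Every gene of this paragraph was called in both knockdowns and in the difference.

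Of the 44 genes of the G2/M list, 10 were not opposite. CDC25B, a phosphatase related to CDC25C, moved the other way with siEZH2: it stood at 5905 and 5206 with siNC and at 3943 and 4454 with siEZH2, a fall of 0.40 ± 0.10 (limma, adjusted p = 0.013). With siSCIRT its change was -0.02 (adjusted p = 0.89). HMMR, ECT2, ANLN, KIF11, CKAP2, LIN54 and LIN9 fell with siSCIRT without a siEZH2 call, and their log2 changes with siEZH2 were 0.07 to 0.74. LIN52 was called in the difference alone (0.55), and LIN37 had no call, with changes of -0.39 and 0.15. HMMR had a siEZH2 change of 0.74 with an adjusted p of 0.067, so a missed threshold there does not show that it stayed still.

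**Figure D2:**
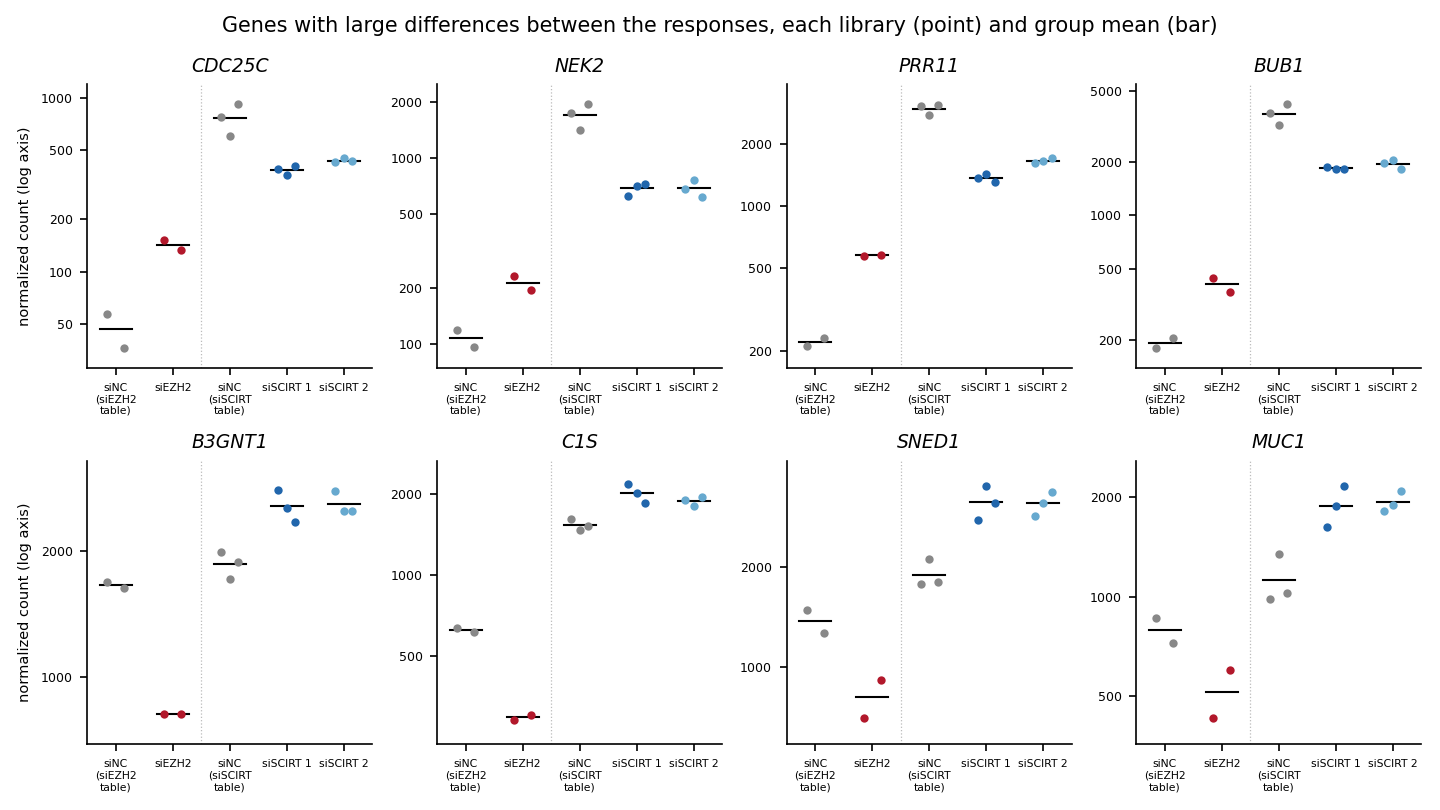
Normalized counts (log axis) of 8 opposite genes in each of the 13 libraries, with bars at group means. CDC25C, NEK2, PRR11 and BUB1 are higher with siEZH2 and lower with both siSCIRT siRNAs than with their own siNC, and B3GNT1, C1S, SNED1 and MUC1 show the reverse, without overlap between a knockdown and its controls.

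Replication genes behaved in the same way with smaller changes. Of the 44 G1/S genes, 28 rose with siEZH2 and 40 fell with siSCIRT, and the difference was called higher for 41. The list medians were 0.60 and -0.56. The number that rose with siEZH2 was 18 without siNC replicate 1 or siEZH2 replicate 1 of the siEZH2 table. Without the first replicates of the siSCIRT table the counts were 31, 39 and 41. DTL, a substrate receptor that marks the licensing factor CDT1 for destruction, stood at 139 and 89.9 with siNC and at 347 and 297 with siEZH2. It stood at 1681, 1269 and 1691 with the other siNC and between 771 and 897 in the 6 siSCIRT libraries, and the difference was 2.40 ± 0.20.

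MCM10, which loads the replication machinery, rose from 63.1 and 45.9 to 170.5 and 141 and fell from 968, 916 and 1165 to between 480.2 and 669, a difference of 2.37 ± 0.20. CDC25A, the phosphatase that activates CDK2, differed by 2.31 ± 0.20. KIAA0101, a PCNA partner, differed by 2.28 ± 0.26, and the zinc finger gene ZNF367 changed by 1.34 ± 0.15 and -0.86 ± 0.11. RFC3, a subunit of the PCNA loader, fell with siSCIRT by 0.78 ± 0.11 and had 105 and 110.1 with siNC against 164 and 133 with siEZH2 (0.45 ± 0.15, limma, adjusted p = 0.069). Of the helicase subunits, MCM3, MCM5 and MCM7 fell with siSCIRT and had siEZH2 changes of 0.30 to 0.33 that missed the threshold. DNMT1, the maintenance DNA methyltransferase, was the exception that rose in both. It went from 3775 and 3868 to 5270.4 and 5429 with siEZH2 (0.49 ± 0.09), and from 7808, 7714 and 8144 to between 8258 and 10751 with siSCIRT (0.26 ± 0.07).

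Upstream regulators of the cycle moved by less. In the list of CDK inhibitors, D cyclins and RB family genes, 7 of 18 differences were called, all higher, against 8.51% of all genes tested. The CDK inhibitor gene CDKN2C was among the called ones. CCND1, the D-type cyclin of G1, rose from 15240.1 and 16962 to 21405 and 21810.2 with siEZH2 and fell from 22608, 24036 and 23259.5 to between 16888 and 20803 with siSCIRT. Its kinase partner CDK6 changed by 0.44 ± 0.09 and -0.31 ± 0.06, and RBL1, the RB relative p107, by 0.49 ± 0.14 and -0.64 ± 0.10. MYC, the growth factor-induced transcription factor, changed by 0.56 ± 0.09 and -0.25 ± 0.07. CCND1, CDK6, RBL1 and MYC were called in both knockdowns. Of 20 p53 targets, 1 rose with siEZH2, and 3 rose and 4 fell with siSCIRT, against 4.33%, 7.5% and 7.82% of all genes tested. The 4 falls were lost without siNC replicate 3 and were 1 without the first replicates of the siSCIRT table.

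**Figure D3:**
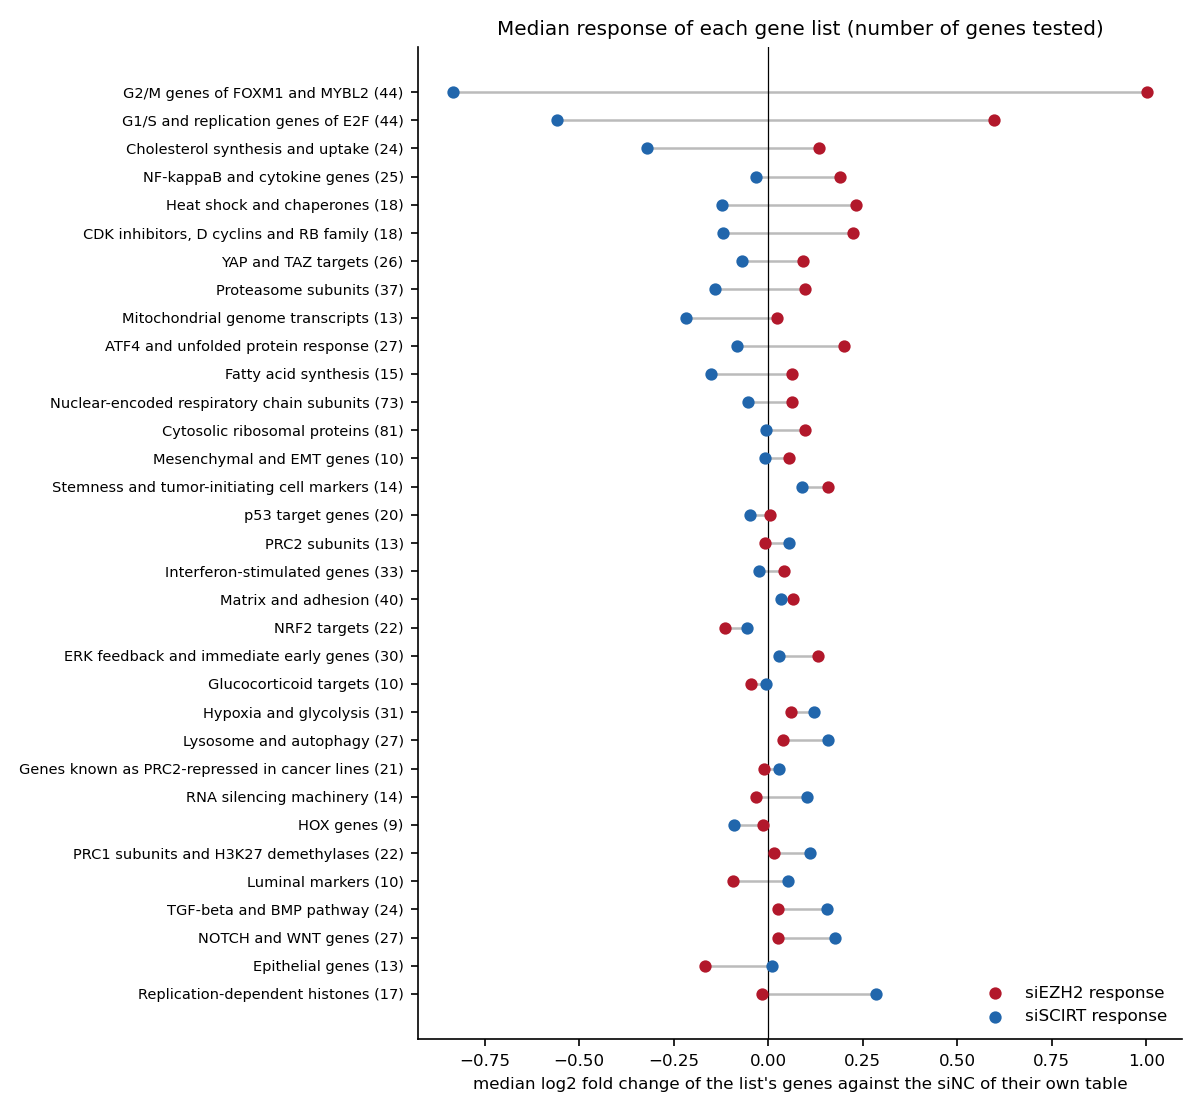
Median log2 fold change of the gene lists drawn with siEZH2 and with siSCIRT, ordered by the difference; the RNAi targets, the marker lists of other cell types and of mesenchymal breast lines, metallothioneins and RNA polymerase III RNAs are not drawn. The G2/M list (1.00 and -0.83) and the G1/S list (0.60 and -0.56) lie farthest apart, and the replication-dependent histones (-0.02 and 0.28) lie at the other end of those drawn.

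Several metabolic and stress lists had called differences mostly in the same direction. In the list of cholesterol synthesis and uptake, 17 of 24 genes fell with siSCIRT (median -0.32) and 3 rose with siEZH2 (median 0.13), and 14 differences were called higher. The shares over all genes tested were 7.82%, 4.33% and 8.51%. SQLE, an oxygen-using step of the pathway, was opposite: it had 1345 and 1687 with siNC, 2206 and 1797 with siEZH2, 2449, 2409 and 2484 with the other siNC, and 1486 to 1879 in the siSCIRT libraries. HMGCS1, the HMG-CoA synthase, moved with siSCIRT alone, from 10743, 10421 and 11033 to between 6629.9 and 7093 (-0.64 ± 0.06, limma, adjusted p = 5.9e-07). With siEZH2 it stood at 5636 and 5121 against 5120.2 and 5883, and the groups overlapped. Without siNC replicate 1 of the siEZH2 table the 3 rises with siEZH2 were lost and 8 differences were called. Without siNC replicate 1 or replicate 3 of the siSCIRT table, 11 cholesterol genes fell with siSCIRT, and 13 did without its first replicates together.

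In the list of ATF4 targets and the unfolded protein response, 5 of 27 genes rose with siEZH2, 7 fell with siSCIRT and 10 differences were called higher. The shares over all genes tested were 4.33%, 7.82% and 8.51%. The 5 rises with siEZH2 were 2 without siNC replicate 1 and 3 without either siEZH2 library. PSAT1, an enzyme of serine synthesis, rose from 649 and 687 to 1120.0 and 954 with siEZH2 and fell from 2252, 1801 and 2074 to between 1032 and 1247 with siSCIRT. Its difference was 1.43 ± 0.14. SLC7A11, the cystine carrier, fell with siSCIRT alone by 0.68, and the amino acid carrier SLC7A5 rose with siEZH2 alone by 0.47. Of 37 proteasome subunits, 9 fell with siSCIRT and 3 rose with siEZH2, against 7.82% and 4.33% of all genes tested. All of these 3 did both, among them PSMD14 (0.33 ± 0.09 and -0.36 ± 0.07). The 9 falls rested on single controls: 1 was called without siNC replicate 1 or replicate 3 of the siSCIRT table, 16 were called without its replicate 2, and 4 without its first replicates together. The 3 rises were lost without siEZH2 replicate 1, and 1 was called without siNC replicate 1 of the siEZH2 table or with quantile normalization. The immunoproteasome subunit PSMB8 fell from 2100.3 and 2221 to 1617 and 1637 with siEZH2 and PSMB9 from 562 and 510.0 to 307 and 282. In the proteasome list 2 genes were called lower with siEZH2, but only 1 difference of the responses was called lower. Among 18 chaperone genes 5 differences were called, all higher, against 8.51% of all genes tested. There were 3 without siNC replicate 1 or replicate 3 of the siSCIRT table, and 2 with quantile normalization. The chaperonin subunit CCT5 changed by 0.49 ± 0.09 and -0.30 ± 0.07. All 13 transcripts of the mitochondrial genome had negative changes with siSCIRT and 5 were called (median -0.22). These 5 calls were lost without the first replicates of the siSCIRT table, and 2 were made with quantile normalization. With siEZH2 their median was 0.02, and -0.05 with quantile normalization.

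The lists of YAP and matrix genes held further opposite genes. Of 26 targets of YAP and TAZ, the effectors of the Hippo pathway, 8 fell and 2 rose with siSCIRT and 3 rose with siEZH2. Among them 8 differences were called higher and 1 lower, against 8.51% and 6.51% of all genes tested. CYR61, a secreted matrix protein, rose from 3470.2 and 4735 to 6061 and 5522 with siEZH2 and fell from 9366, 8324 and 9530.2 to between 5225 and 5573 with siSCIRT. Its relative CTGF changed by 0.38 ± 0.10 and -0.75 ± 0.07. Without siNC replicate 1 of the siEZH2 table the 3 rises among YAP targets were lost. COL4A1, a chain of basement membrane collagen, rose from 1552 and 1777 to 2483 and 2710.1 and fell from 4049.6, 4156 and 4635 to between 2801 and 3196. Its partner chain COL4A2 was opposite as well (0.52 and -0.37). DKK1, a secreted inhibitor of WNT signalling, had 1786 and 2772 with siNC, 4303 and 3224 with siEZH2, 2977, 2621 and 2496 with the other siNC, and 1766 to 2380.4 in the siSCIRT libraries. The matrix list as a whole did not lean: of 40 genes, 4 rose with siEZH2, and 6 rose and 7 fell with siSCIRT. The shares over all genes tested were 4.33%, 7.5% and 7.82%.

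The 88 genes that were lower with siEZH2 and higher with siSCIRT held no gene of the cell cycle lists. Complement and secreted proteins were among the named ones. C1S, a protease of the classical complement pathway, fell from 639 and 617 to 290.0 and 304 with siEZH2 and rose from 1616, 1462 and 1519.8 to between 1806 and 2174 with siSCIRT. C4B, a complement factor nearly identical to C4A so that its reads are uncertain, changed by -0.81 ± 0.17 and 0.76 ± 0.12. ENPP2, which encodes autotaxin, the enzyme that makes lysophosphatidic acid, changed by -0.82 ± 0.21 and 0.70 ± 0.15. SNED1, a matrix protein, fell from 1487 and 1266 to 707 and 918 and rose from 1776, 2109.5 and 1799 to between 2763 and 3483.

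B3GNT1 is a glycosyltransferase gene. It fell from 1681 and 1627 to 816 and 819 with siEZH2 and rose from 1983, 1713 and 1877 to between 2342 and 2797 with siSCIRT, a difference of -1.48 ± 0.12 (limma, adjusted p = 3.7e-08). SEMA6D, a semaphorin, had the largest negative difference among genes with a mean of at least 100, -1.65 ± 0.28. It had 130.0 and 92.7 with siNC, 58.5 and 57 with siEZH2, 83.9, 128 and 138 with the other siNC, and 172 to 233 with siSCIRT. MUC1, an epithelial surface mucin, had 864 and 723 with siNC, 431 and 599.7 with siEZH2, 985, 1345 and 1028 with the other siNC, and 1618 to 2155 with siSCIRT. VIPR1-AS1 changed by -0.99 ± 0.19 and 0.47 ± 0.13, and its reads cannot be told apart from those of VIPR1 on the opposite strand. CD14, which had the highest median of the markers of other cell types, was in this class as well (-0.62 and 0.35). PTPRC, CD68 and ITGAM, which define blood cells, stayed at or below 0.459 RPM in all libraries.

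Some histone genes rose with siSCIRT, where most replication genes of the G1/S list fell. Of 17 replication-dependent histone genes tested, 4 rose with siSCIRT (median 0.28), 3 fell and 1 rose with siEZH2 (median -0.02), and 5 of 6 called differences were lower. Background shares were 7.5% for rises with siSCIRT, 2.77% and 4.33% for falls and rises with siEZH2, and 6.51% for lower differences. Quantile normalization turned the siEZH2 median of these histones to 0.06, and 1 of the 3 falls stayed called without siEZH2 replicate 2 or either siNC library. HIST1H2BD fell from 2486 and 2613 to 1836 and 1689 with siEZH2 and rose from 1938, 2102 and 1974 to between 2644 and 3098 with siSCIRT. HIST2H2BE changed by -0.47 ± 0.11 and 0.37 ± 0.08, and HIST1H2AC by -0.36 ± 0.10 and 0.37 ± 0.07. These 3 genes are known to give polyadenylated transcripts outside S phase as well. HIST1H2BK was the member that rose with siEZH2, by 0.60.

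The NRF2 list was mixed, with 2 members in this class. Of its 22 genes, 4 fell with siEZH2, and 2 rose and 5 fell with siSCIRT (2 without siNC replicate 1 or replicate 3). The shares over all genes tested were 2.77%, 7.5% and 7.82%. AKR1C3, an aldo-keto reductase, fell from 999 and 821 to 553 and 513 with siEZH2 and rose from 1338, 1289.6 and 1451 to between 1460.4 and 1824 with siSCIRT. The transporter ABCC3 changed by -0.53 ± 0.09 and 0.32 ± 0.06. TXNIP, a brake on glucose uptake, fell from 29944 and 31678 to 22327 and 21819 and rose from 36884, 39069 and 33035 to between 41743 and 50853. TIMP3, a tissue inhibitor of metalloproteinases, changed by -0.36 ± 0.09 and 0.28 ± 0.07.

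**Figure D4:**
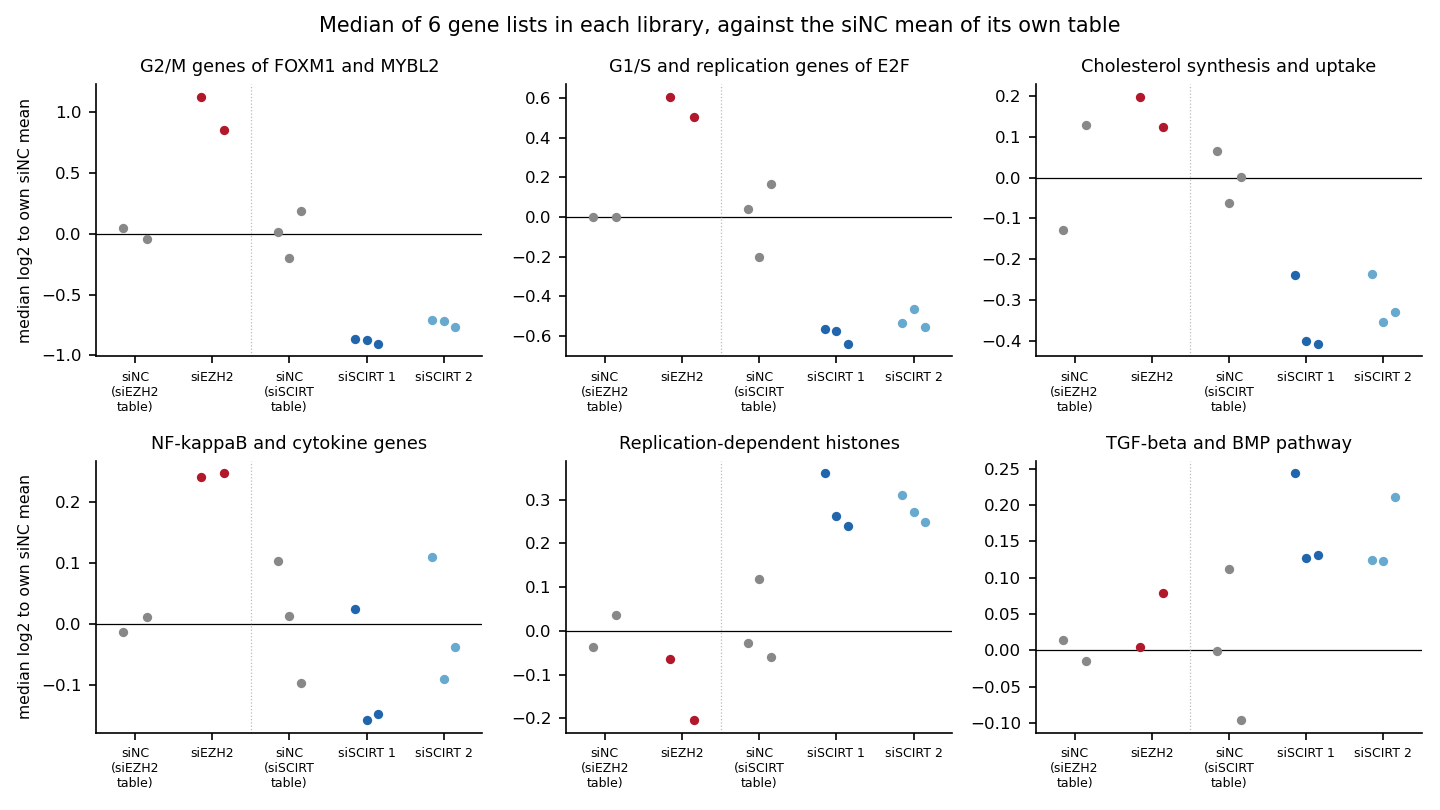
Median log2 value of 6 gene lists in each library relative to the mean of its own siNC. For the G2/M list the siEZH2 libraries lie at 1.13 and 0.86 and the siSCIRT libraries between -0.71 and -0.91, while siNC of the siSCIRT table spreads from -0.20 to 0.18.

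Within most of these lists the libraries of a group lay close together. Medians of the G1/S list were 0.61 and 0.51 in the siEZH2 libraries and between -0.47 and -0.64 in the siSCIRT libraries. For cholesterol genes the siEZH2 libraries lay at 0.20 and 0.13 and their siNC libraries at -0.13 and 0.13, so that the siEZH2 side was within or just above the spread of its controls. The siSCIRT libraries lay between -0.24 and -0.41 for that list. Histone medians were 0.24 to 0.36 in the siSCIRT libraries.

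Shared changes were few and moderate. TNC, the matrix glycoprotein tenascin-C, rose from 12639.9 and 13329 to 18031 and 20819.7 with siEZH2 and from 10459, 12015 and 9634 to between 13674 and 18327 with siSCIRT. Its log2 changes were 0.58 ± 0.11 and 0.53 ± 0.08, and the difference of 0.05 ± 0.14 was not called (limma, adjusted p = 0.86). A2M, a protease trap, rose from 488 and 371 to 575 and 696 and from 1214, 1445 and 1315 to between 1708 and 2133.

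TMEM45A, CDK14 and GDF11 were the other named shared rises. Their changes were 0.56, 0.45 and 0.39 with siEZH2 and 0.47, 0.43 and 0.68 with siSCIRT. CDK14 is a cyclin-dependent kinase that acts on the WNT receptor LRP6, and GDF11 is a ligand of the TGF-beta family. The differences of the 5 named shared rises lay between -0.29 and 0.09, and none of these 5 was called.

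Shared falls included EZH2 itself. ROR1, a receptor for WNT5A, fell from 1003 and 783 to 489 and 548 with siEZH2 and from 2986, 2902 and 3165 to between 2009 and 2433 with siSCIRT (-0.77 ± 0.11 and -0.45 ± 0.08). DNAH5, a dynein heavy chain, changed by -0.45 ± 0.12 and -0.74 ± 0.09, DDI2 by -0.61 ± 0.12 and -0.44 ± 0.08, and the MYC-binding protein gene MYCBP by -0.43 ± 0.13 and -0.43 ± 0.09. Of the 26 shared falls, 4 also had a called difference, each with the larger fall under siEZH2: EZH2, GFPT2, MYH10 and FAM73A. The last 3 were named after their values were seen. MYH10, a nonmuscle myosin, fell by 1.09 ± 0.12 with siEZH2 and by 0.43 ± 0.08 with siSCIRT.

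Genes that rose with siEZH2 alone included inflammatory ones. Of 25 NF-kappaB and cytokine genes, 7 rose with siEZH2 (median 0.19), 1 rose and 3 fell with siSCIRT (median -0.03), and all 12 called differences were higher. Background shares were 4.33% for rises with siEZH2, 7.5% and 7.82% for rises and falls with siSCIRT, and 8.51% for higher differences. CSF2, the cytokine GM-CSF, stood at 372 and 403 with siNC and at 1090.2 and 1064 with siEZH2 (1.47 ± 0.15, limma, adjusted p = 5.7e-06). With siSCIRT it stood at 1132 to 1580.3 against 1599, 1118 and 1364, and the groups overlapped (-0.03 ± 0.11, adjusted p = 0.89). IL8, a neutrophil attractant, rose from 5749 and 6033 to 15271 and 12218 with siEZH2 and had a change of -0.02 ± 0.10 with siSCIRT.

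The other inflammatory genes moved by somewhat less. IL1B rose by 0.93 ± 0.17, TNFAIP3, which encodes the NF-kappaB inhibitor A20, by 0.91 ± 0.08, and PTGS2, the inducible cyclooxygenase, by 0.93 ± 0.14. IL1A was opposite (0.64 and -0.54), and IL6 fell with siSCIRT alone by 0.52 ± 0.09, with a siEZH2 change of 0.34 ± 0.13 (limma, adjusted p = 0.12). The control levels were again unlike: IL8 was at 176 and 175 RPM in siNC of the siEZH2 table and at 606, 629 and 480 in siNC of the siSCIRT table.

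MMP3, a metalloproteinase of the matrix list, had the largest rise among the genes named for siEZH2 alone. It stood at 22.9 and 35.8 with siNC and at 107 and 99.5 with siEZH2, and at 364, 350.2 and 211 with the other siNC against 190.1 to 288 with siSCIRT. Its changes were 1.81 ± 0.25 and -0.32 ± 0.17, and the difference was 2.13 ± 0.30 (limma, adjusted p = 5.5e-05). POU3F2, a neural transcription factor, rose by 1.13 ± 0.20. In the interferon list, IFIT1, OASL and IFI44 rose with siEZH2 alone by 0.73, 0.57 and 0.44, and XAF1 fell by 0.64. The list as a whole was mixed, with 5 rises and 2 falls of 33 with siEZH2 and 5 rises with siSCIRT. Single libraries took either count of rises down to between 2 and 3. Over all genes tested, 4.33% rose and 2.77% fell with siEZH2, and 7.5% rose with siSCIRT.

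Falls with siEZH2 alone were led among the named genes by P2RY6, a receptor for UDP, and ATP8A2, a phospholipid flippase, with differences of -1.32 ± 0.22 and -1.27 ± 0.32. LIPA, the lysosomal acid lipase, had the smallest adjusted p of the 5 named falls and went from 3622 and 3189.6 to 1507 and 1352 with siEZH2 (-1.25 ± 0.10, limma, adjusted p = 2.5e-07). With siSCIRT it stood at 4842 to 5891 against 5411, 5369.8 and 5538, a change of -0.03 ± 0.07. Its RPM in the controls were alike in the 2 tables, 111 and 92.7 against 99.9, 102 and 106. SLC16A6, a monocarboxylate carrier, fell from 233 and 186 to 94.6 and 94.1, and S100P, a calcium-binding protein, from 625 and 723 to 402 and 343. Of 27 lysosome and autophagy genes, in a list without LIPA, 1 rose with siEZH2 and 7 rose with siSCIRT (3 without siNC replicate 3). Background shares of rises were 4.33% with siEZH2 and 7.5% with siSCIRT.

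**Figure D5:**
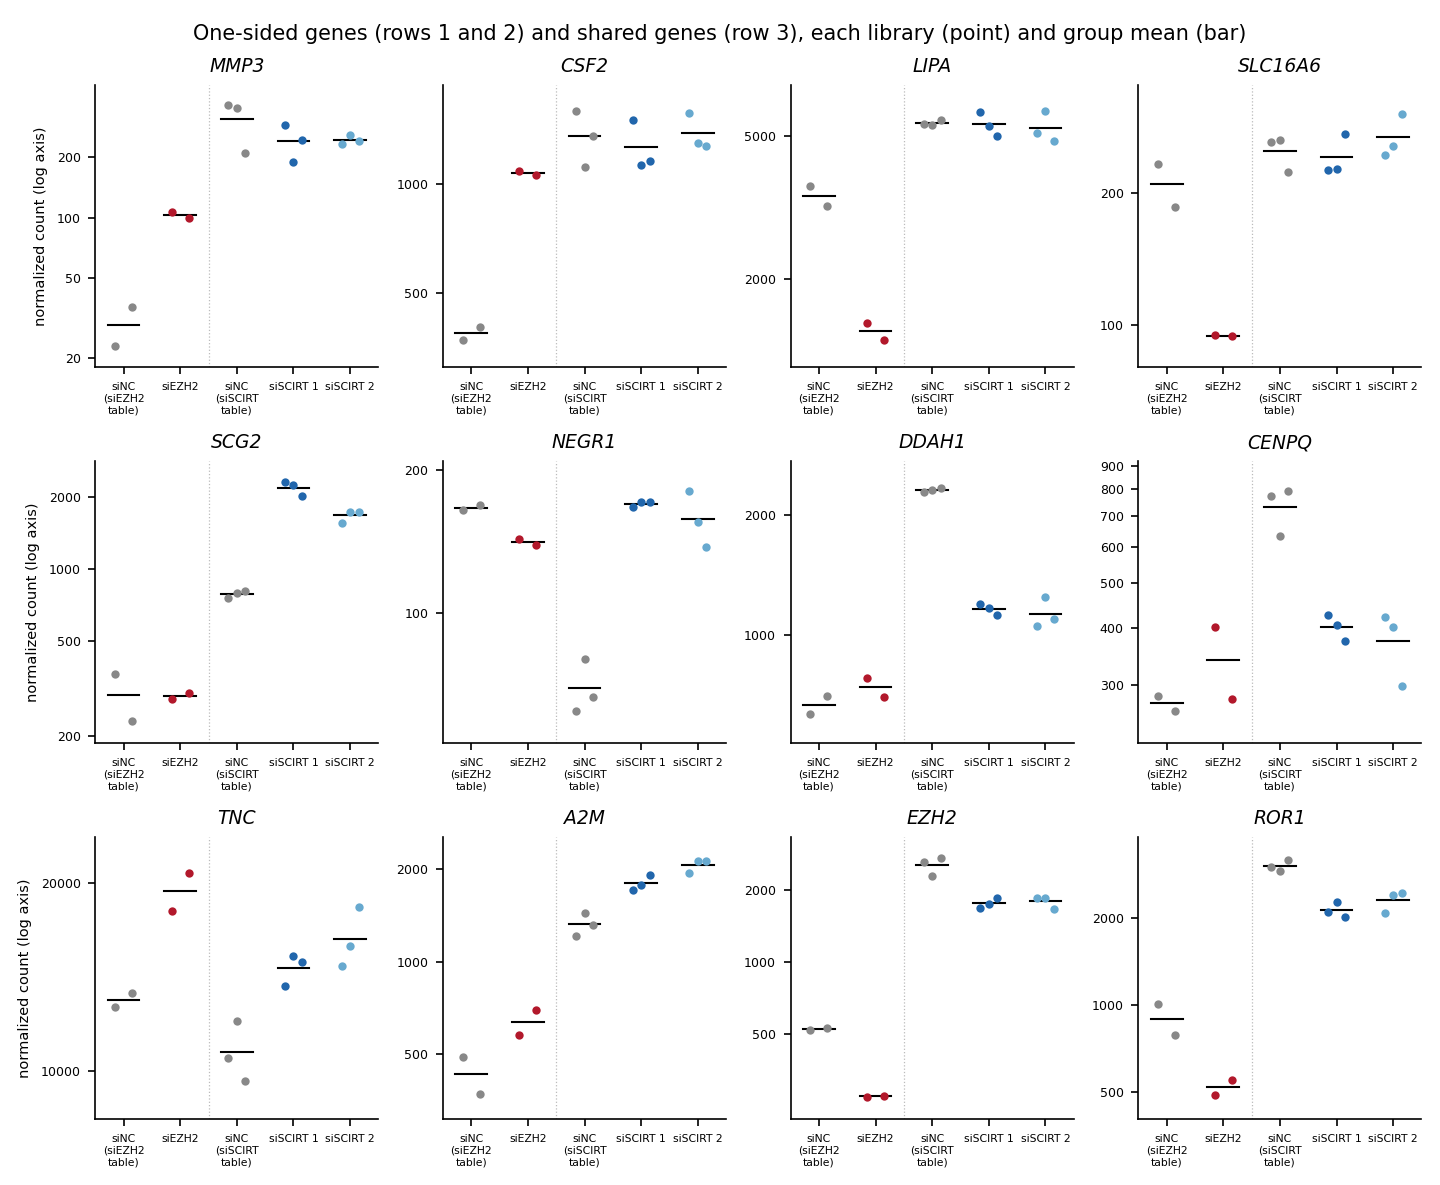
Normalized counts (log axis) of 12 genes in each of the 13 libraries, with bars at group means. MMP3, CSF2, LIPA and SLC16A6 moved with siEZH2 alone, SCG2, NEGR1, DDAH1 and CENPQ with siSCIRT alone, and TNC, A2M, EZH2 and ROR1 in the same direction in both.

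Genes that rose with siSCIRT alone included secreted and membrane proteins. SCG2, a granin of secretory vesicles, rose from 755, 792 and 813 with siNC to 2309, 2259 and 2016 with siSCIRT 1 and to 1560.5, 1729 and 1742 with siSCIRT 2 (1.28 ± 0.10, limma, adjusted p = 1.9e-07). In the siEZH2 table it stood at 363 and 232 with siNC and at 285 and 302 with siEZH2, and the groups overlapped. SLC14A1, a urea channel, rose from 191, 297 and 246 to between 498 and 802 with siSCIRT and had a siEZH2 change of -0.27 ± 0.16 (adjusted p = 0.37).

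NEGR1, a neuronal adhesion molecule, rose by 1.23 ± 0.13 with siSCIRT, ANGPT1, a ligand of the receptor TIE2, by 0.90 ± 0.11, and the BMP antagonist CHRDL1 by 1.02 ± 0.10. Their siEZH2 changes were -0.24, -0.41 and -0.23 and were not called. In the TGF-beta and BMP list, 8 of 24 genes rose and 2 fell with siSCIRT (median 0.16), against 3 rises and 1 fall with siEZH2 (median 0.02). The background shares were 7.5% and 7.82% with siSCIRT and 4.33% and 2.77% with siEZH2. TGFB2, BMP4 and the receptor TGFBR1 rose with siSCIRT alone by 0.46, 0.42 and 0.35. Of that list 2 differences were called higher and 6 lower, against 8.51% and 6.51% of all genes tested. The lower ones numbered 1 without siNC replicate 1 of the siEZH2 table, and 3 without siEZH2 replicate 1 or siNC replicate 3 of the siSCIRT table. The siEZH2 median of the list was -0.03 with quantile normalization. In the matrix list COL6A1, COL6A2, COL7A1 and ITGB4 rose with siSCIRT alone by 0.46 to 0.75.

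Falls with siSCIRT alone included DDAH1, which breaks down an inhibitor of nitric oxide synthase. It went from 2284, 2321 and 2339 to 1196, 1169.7 and 1119.5 with siSCIRT 1 and to 1055, 1243 and 1098 with siSCIRT 2 (-1.01 ± 0.07, limma, adjusted p = 2.6e-08). With siEZH2 it stood at 780.3 and 699 against 633 and 703, and these overlapped. CENPQ, a centromere protein, fell by 0.92 ± 0.12, with a siEZH2 change of 0.29 ± 0.17. PAPPA2, a protease of IGF-binding proteins, fell by 0.78 ± 0.14, and HMGN5, a nucleosome-binding protein, by 0.83 ± 0.15. The class held 19 genes of the cell cycle lists.

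Of 13 PRC2 genes, 2 were called with siEZH2 and 5 with siSCIRT, against 7.09% and 15.3% of all genes tested. EZH2 fell and JARID2, an accessory subunit, rose with siEZH2 (0.36). That rise was not called with quantile normalization, and leaving out single libraries took the siEZH2 rises of the list to 0. With siSCIRT, EZH2, SUZ12, RBBP7 and PHF19 fell, by 0.51, 0.23, 0.30 and 0.41, and PHF1 rose by 0.49. Without siNC replicate 3 of the siSCIRT table, 2 PRC2 genes fell with siSCIRT. The list medians were -0.01 and 0.05. In the list of PRC1 subunits and H3K27 demethylases, 1 of 22 genes fell with siEZH2 (PCGF1) and 3 rose with siSCIRT (CBX7, RING1 and KDM6B). The shares over all genes tested were 2.77% and 7.5%. Leaving out single libraries took the siEZH2 falls of that list to 0.

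Of 21 genes known as PRC2-repressed in cancer lines, 1 rose and 2 fell with siEZH2, with a median of -0.01. Over all genes tested, 4.33% rose and 2.77% fell with siEZH2, and 7.5% rose and 7.82% fell with siSCIRT. DKK1 was the rise of the list, and leaving out single libraries took its siEZH2 rises to 0. TIMP2, a metalloproteinase inhibitor, fell from 20197 and 23652 to 11220.3 and 10992 with siEZH2 (-0.98 ± 0.10, limma, adjusted p = 3.1e-06) and had a change of 0.03 ± 0.07 with siSCIRT. TIMP3 was the other fall. With siSCIRT 5 of the 21 rose (2 without siNC replicate 3) and 1 fell, and the median of the differences was -0.08, or 0.05 with quantile normalization. Of the 9 HOX genes tested, 0 were called by limma, edgeR or DESeq2, and 1 had an unadjusted p under 0.05 with siEZH2. The siEZH2 libraries held 0.529 of the EZH2 RNA of their controls.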

How the data were processed

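RNA-seq libraries were made with the unstranded TruSeq RNA v2 kit, per the labels' protocols. CASAVA 1.4, TopHat2, Partek and hg19 are named without roles, per the submitters' processing notes, and the counting program is not given in the sources used here. For siEZH2 the authors deposited linear signal values, which are reads divided by 1 size factor per library. The deposited siSCIRT table holds log2-scale values of a variance-stabilizing transform, where the design assumed linear values. They were inverted exactly, and dividing by each library's step gave whole reads for 100% of values in the 13 libraries (tolerance 0.05 reads), from which depth and RPM were taken. The siSCIRT 1 columns were identified by inference, since only siSCIRT 2 columns carry a number. The culture libraries were not used here.

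Genes with a mean of at least 10 in both tables were tested in 1 limma 3.58.1 fit (R 4.3.3; eBayes with trend and robust) of log2(normalized count + 1) on 5 group means, with 8 residual degrees of freedom. Fold changes carry the SE of that fit, and p-values are two-sided with Benjamini-Hochberg adjustment over all genes tested, called under 0.05. Each response used the controls of its own table. The script was tested on simulated data. The members and gene lists were chosen with earlier results of these data known, as were the promoter motifs and the genes and lists given in RPM.

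Genes named by difference were the 10 largest called differences each way. Genes named by class were the 5 per shared or opposite class with the largest smaller change, and the 5 per one-sided class with the largest difference. Genes of both kinds had a mean of at least 100 in a group of each table. Where a siSCIRT call was used for them, it had to hold with each siRNA. Up to 4 genes of each list, ranked by adjusted p, were named as well, with further members used for describing a list. These conditions were not required of the list genes. COL3A1 and VWF, for example, stayed at or below 0.751 and 1.37 RPM in all libraries. Promoters came from a RefSeq table of GRCh38.p14 matched by symbol, and shares are given where at least 80% of a class matched. Alternatives included other pseudocounts, filters and normalizations, edgeR 4.0.16, DESeq2 1.42.0, a replicate block, each siRNA alone and each library left out in turn.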

Additional observations from a re-analysis of the deposited data

How the results depend on the processing

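Over 190 named genes and 5119 values, 4787 kept their side of the threshold without turning, or turned by less than their SE without a call, 257 lost their call, 72 gained one, 3 without a call turned by more than their SE and 0 turned with a call. The counts of calls depended on the processing. Main counts were 1308 higher and 1001 lower differences, 1090 siEZH2 and 2355 siSCIRT calls, 50 genes sharing a direction, 311 and 88 opposite genes, and 462 and 927 genes moving with siEZH2 or siSCIRT alone. The replicate numbers do not pair the libraries by the labels, and the correlation of same-numbered deviations was -0.01 in the siEZH2 table and -0.003 to 0.62 in the siSCIRT table. With the replicate number as a block these counts were 1969, 1606, 2032, 3592, 177, 480, 182, 902 and 1435. At adjusted p under 0.01 they were 701, 420, 518, 1263, 12, 170, 29, 213 and 457. With the siSCIRT values as deposited, lower differences numbered 1801, siEZH2 calls 3202, genes sharing a direction 84, and genes moving alone 1957 and 561. Without the eBayes trend there were 711 siEZH2 calls, 27 genes sharing a direction and 207 opposite with siEZH2 up. Genes sharing a direction numbered 33 with a table-specific spread, 32 without a filter and 84 with DESeq2. With siSCIRT 2 alone there were 1540 siSCIRT calls, 57 opposite genes with siEZH2 down and 583 with siSCIRT alone. Requiring each siSCIRT siRNA alone, added after seeing the data, gave 1195, 26, 49 and 563 for siSCIRT calls, shared direction, opposite with siEZH2 down and siSCIRT alone. Leaving out the first replicates of the siSCIRT table together, also added, gave 1515 siSCIRT calls. The causes of these shifts were not tested. With each library left out in turn, the ranges were 876 to 1396 higher, 545 to 1167 lower, 467 to 1232 siEZH2 calls, 1235 to 2470 siSCIRT calls, 19 to 70 sharing a direction, 191 to 328 and 32 to 94 opposite, and 177 to 534 and 501 to 1030 moving alone. When a library of a group of 2 is left out, the lone library is assumed to vary like the other groups. Fitting each table alone gives no test of the difference. Totals were 27989577 reads or above, and no shallower depth was tried.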
